A study of Homo sapiens with 18 samples.

Results

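Cells lacking both the cohesin release factor WAPL and the cohesin loading subunit SCC4 (ΔWAPL/ΔSCC4) were compared with wild-type cells of the same line by RNA sequencing. The comparison held 6 of the 18 libraries of the series, the 3 labelled as carrying both knockouts and the 3 wild-type libraries titled A1 to A3 (control A), and it asked which functions, gene families and loci were altered when loading and release of cohesin were both impaired. Of the 20329 gene identifiers in the count files, 12594 had enough reads in these 6 libraries to be tested. All groups were HAP1, a near-haploid human line derived from chronic myeloid leukaemia that grows attached and carries mutant p53. ΔWAPL clones carried a blasticidin cassette inserted at a CRISPR cut in WAPL, and the ΔSCC4 cells carried a puromycin cassette at a cut in MAU2, the gene of SCC4. For the combined genotype, MAU2 was disrupted in a line already without WAPL. The sample labels carry the number of ΔWAPL clone 3.3, which is taken here as the parent. Each knockout group was represented by a clone with 3 libraries, so the genotype of a group and the history of its clone cannot be told apart. Further libraries came from ΔWAPL 3.3 and ΔSCC4 cells, 3 each, and from ΔWAPL clone 1.14 with its own 3 wild-type libraries (control B).

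Cohesin is a ring-shaped complex of SMC1A, SMC3, RAD21 and a STAG subunit that holds DNA and forms chromatin loops. The SCC2-SCC4 complex, encoded by NIPBL and MAU2, promotes its loading onto DNA, and WAPL opens the ring and releases it, so that loss of WAPL leaves cohesin on DNA for longer and loss of SCC4 leaves less of it loaded. Loops anchored at CTCF sites help to set which enhancers meet which promoters, and cohesin is best known in development for its part in the expression of patterned gene families.

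The guides that define the genotype are shown 5′ to 3′ with the adjacent PAM of the genome in capitals. The 19 guide bases shown leave out the G before them in the cloned oligos, which the genome also has. The positions below cover these 19 bases.
WAPL guide: cgttccatagtatcctgtaTGG
SCC4 guide: tacgggcctcgatgcgctgCGG
The WAPL guide matched GRCh37 once, on the plus strand at chr10:88259864-88259882, within the coding part of exon 3 (of 19) of WAPL, whose coding strand is the minus strand. The SCC4 guide matched once, on the minus strand at chr19:19431849-19431867, within the coding part of exon 1 (of 19) of MAU2, whose coding strand is the plus strand.

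The 6 libraries held 15647569 to 17591399 reads counted on genes, and 21% to 22.4% of all counted reads were assigned to no gene. Levels are given as CPM, reads of a gene scaled to a library of fixed size by TMM normalization over all 18 libraries and not divided by gene length, so they are compared between samples and not between genes. The labels do not say whether the 3 libraries of a group came from separate cultures, so p-values measure the spread between these samples, which may be technical. Replicates differed from each other by more than counting noise in every group, with a chi-square per degree of freedom of 15.3 to 52.0 among the control A libraries and 5.08 to 21.5 among the ΔWAPL/ΔSCC4 libraries. Part of that spread followed the GC content of transcripts, with a Spearman's rho across 12450 genes of 0.673 for the difference between control replicates 1 and 3, while the ΔWAPL/ΔSCC4 against control fold change had a rho of 0.022. As the samples were bulk RNA, fewer cells expressing a gene and less RNA per cell cannot be told apart.

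MAU2, the SCC4 gene, was measured at 72.7, 62.6 and 61.3 CPM in control A and at 0.910, 1.04 and 0.848 CPM in ΔWAPL/ΔSCC4. The groups lay far apart, and the fall was 70.0-fold (log2 fold change −6.13 ± 0.18 SE, edgeR's quasi-likelihood test with Benjamini-Hochberg adjustment, adjusted p = 4.94e-08). WAPL was at 78.1, 98.5 and 121 CPM in control A and at 41.0, 47.0 and 48.5 CPM in ΔWAPL/ΔSCC4. Its transcript was thus still present at a level 2.18-fold lower (−1.13 ± 0.16, adjusted p = 0.00134), and all ΔWAPL/ΔSCC4 samples lay below all control samples. A count over the whole gene does not tell whether the disrupted transcript can be translated. NIPBL, the SCC2 partner of SCC4, was at 115 ± 33.6 CPM (SD, n = 3) in control A and 120 ± 14.1 CPM (SD, n = 3) in ΔWAPL/ΔSCC4, a log2 difference of 0.06 ± 0.19 SE. None of the 7 tested cohesin core subunits passed the threshold in edgeR's quasi-likelihood test or with DESeq2, with 0 at an unadjusted p under 0.05, and their log2 fold changes ran from −0.09 to 0.25. With control B in place of control A 1 of them passed, higher. SMC1A (0.01 ± 0.13), SMC3 (−0.09 ± 0.12), RAD21 (−0.07 ± 0.15) and STAG2 (0.05 ± 0.10), subunits of the complex, had differences smaller than their standard errors. CTCF, a partner of cohesin at loop anchors, differed by −0.14 ± 0.12 and did not pass the threshold (adjusted p = 0.668 in edgeR's quasi-likelihood test).

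Between ΔWAPL/ΔSCC4 and control A, 1001 of the 12594 tested genes passed an adjusted p of 0.05, which is 7.95% of them. The threshold was passed upward by 586 genes (4.65%) and downward by 415 genes (3.3%). The median log2 fold change of all tested genes was 0.0006, and the median size of the change among genes past the threshold was 1.152 on the log2 scale. A change of 2-fold or more was seen in 369 of the higher genes (2.93% of those tested) and 217 of the lower genes (1.72%), and a change of 8-fold or more in 49 (0.389%) and 65 (0.516%). The 3 samples of one genotype all lay beyond the 3 of the other for 2850 tested genes (22.6%), and for 1000 of the 1001 genes past the threshold (7.94% of those tested). The count rested on which libraries were used: it was 1552 without control replicate 1, 634 without control replicate 2 and 586 without ΔWAPL/ΔSCC4 replicate 1. The 30 genes with the largest rises and falls, described next, passed the threshold under every alternative that gave them a value.

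HAP1 cells descend from a leukaemia, and the gene with the largest rise encodes β-globin. HBB (ENSG00000244734, chromosome 11, 5246694 to 5250625, GRCh37) had no read in any control sample and stood at 7.17, 6.08 and 4.58 CPM in ΔWAPL/ΔSCC4. Against a floor of 3 counts over the control group the rise was at least 95.7-fold. The γ-globin genes were at or near 0 in both groups, at 0 CPM in all 6 samples for HBG1, as was the erythroid factor GATA1 at no more than 1 read a sample. HBB has close paralogs in its cluster, which can share reads with it.

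Genes of the neuronal surface stood among the largest rises. NLGN4X, a postsynaptic adhesion protein that binds neurexins, was at 0.0651, 0.0617 and 0.119 CPM in control A and at 10.9, 11.6 and 10.3 CPM in ΔWAPL/ΔSCC4, a 121-fold rise (6.92 ± 0.26, adjusted p = 1.65e-07 in edgeR's quasi-likelihood test). OLFM1, a secreted olfactomedin-domain protein of the brain, went from 1.24, 0.925 and 1.37 CPM to 18.9, 18.4 and 19.9 CPM (4.0 ± 0.18). CNTNAP2, a neurexin-related protein of the axon, rose from 3.58, 4.99 and 6.73 CPM to 52.9, 64.2 and 40.9 CPM (3.36 ± 0.24). In each of these genes the lowest knockout sample lay several-fold above the highest control sample. AMIGO2, a leucine-rich repeat adhesion protein, rose by 3.53 ± 0.33 on the log2 scale from levels under 0.6 CPM, and TMEM132E, a transmembrane protein needed in inner ear hair cells, rose 22.9-fold from 1.76, 1.11 and 1.25 CPM to 31.1, 28.3 and 35.2 CPM (4.51 ± 0.20, adjusted p = 4.19e-07).

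The other rises among the 15 covered signalling, vesicle, junction and patterning genes. KSR2, a scaffold of the RAF-MEK-ERK cascade, rose by 5.08 ± 0.30, JAKMIP3, a Janus kinase and microtubule interacting protein, by 5.02 ± 0.28, and ARHGAP20, a GTPase-activating protein, by 4.61 ± 0.32, all on the log2 scale and all from below 0.3 CPM. UBE2QL1, a ubiquitin-conjugating enzyme-like protein, rose by 5.47 ± 0.31. MAL2, a raft protein of apical transport, and MCTP2, a membrane protein with C2 domains, rose by 4.37 ± 0.38 and 4.34 ± 0.34, and GALNT5, an enzyme that starts O-linked glycosylation, by 4.28 ± 0.24. ALX4, a homeobox factor of craniofacial and limb patterning, was already expressed in the wild type at 7.10, 5.06 and 5.01 CPM and reached 76.7, 68.0 and 83.3 CPM (3.73 ± 0.18, adjusted p = 7.79e-07 in edgeR's quasi-likelihood test). GJA1, which encodes the gap junction protein connexin 43, went from 0.977, 2.1 and 1.07 CPM to 16.5, 22.3 and 18 CPM (3.77 ± 0.25). Apart from ALX4 and CNTNAP2, the 15 largest rises started from control means under 2 CPM, so most of them were genes hardly transcribed in the wild type.

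**Figure D1:**
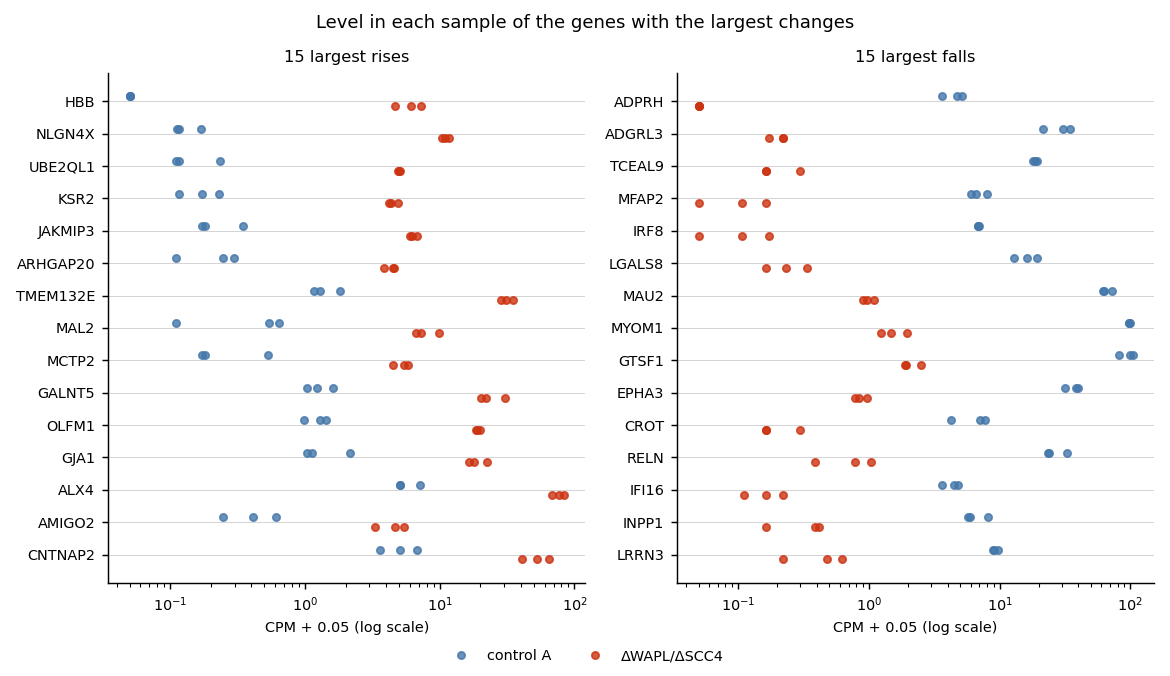
Levels in each sample of the 15 genes with the largest rises (left) and the 15 with the largest falls (right), plotted as CPM plus 0.05 on a log axis, with a point for each control A sample (blue) and each ΔWAPL/ΔSCC4 sample (red). In every gene the 3 red points lie beyond the 3 blue points, which was a condition of selection. HBB has its control points at 0 CPM, and ADPRH has its ΔWAPL/ΔSCC4 points at 0 CPM.

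The largest falls included genes that were well expressed in wild-type cells. MYOM1, a protein of the sarcomeric M-band (chromosome 18, 3066805 to 3219966, GRCh37), was at 96.6, 97.5 and 99.8 CPM in control A and at 1.42, 1.91 and 1.19 CPM in ΔWAPL/ΔSCC4, a 65.2-fold fall (−6.03 ± 0.18, adjusted p = 4.94e-08 in edgeR's quasi-likelihood test). GTSF1, a zinc finger protein of the piRNA pathway in the germline, fell from 104, 100 and 81.9 CPM to 2.45, 1.84 and 1.87 CPM (−5.54 ± 0.18). ADGRL3, the adhesion receptor latrophilin 3, fell 178-fold from 21.4, 30.7 and 34.6 CPM to 0.171, 0.123 and 0.170 CPM (−7.47 ± 0.30, adjusted p = 2.22e-07). These genes were thus near silent in all 3 ΔWAPL/ΔSCC4 samples after moderate expression in all 3 controls.

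EPHA3, a receptor tyrosine kinase of axon guidance, was at 31.3, 38.2 and 39.9 CPM against 0.797, 0.922 and 0.735 CPM in ΔWAPL/ΔSCC4 (44.4-fold lower, −5.47 ± 0.18). RELN, the secreted glycoprotein reelin that guides neuronal positioning, fell from 23.6, 23.2 and 32.4 CPM to 0.341, 0.983 and 0.735 CPM (−5.27 ± 0.28). TCEAL9, a small X-linked nuclear protein, went from 19.2, 18.6 and 17.8 CPM to 0.114, 0.246 and 0.113 CPM (114-fold lower). That the groups did not overlap in these genes was a condition of their selection. LGALS8, the carbohydrate-binding galectin 8, fell by 6.33 on the log2 scale, CROT, a peroxisomal carnitine acyltransferase, by 5.28, and IFI16, a sensor of DNA, by 5.11. INPP1, an inositol phosphatase, and LRRN3, a leucine-rich repeat neuronal protein, fell by 4.56 and 4.54.

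ADPRH, which removes ADP-ribose from arginine, had 5.08, 3.58 and 4.65 CPM in control A and no read in any ΔWAPL/ΔSCC4 sample, a fall of at least 76.0-fold against a floor of 3 counts over the group. The same held for TFPI2, an inhibitor of matrix and coagulation proteases, at least 39.1-fold lower, for ZNF385D, a zinc finger protein, at least 36.2-fold lower, and for TBX18, a T-box factor of heart and somite development, at least 18.1-fold lower. IRF8, a transcription factor of myeloid and lymphoid cells, had 330 reads over the controls and 3 over ΔWAPL/ΔSCC4, a ratio of 117 in CPM with a 95% counting interval of 39.8 to 571. MFAP2, a component of elastic microfibrils, had the same read totals and the same ratio. The intervals and floors cover counting error only.

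Sorted by function, the lists differed in the share of their genes past the threshold, which was above that of all genes in many lists of cell surface and developmental genes and below it in several lists of housekeeping genes. Against a background of 7.95% of all tested genes, the share past the threshold was 51.9% of 27 tested synaptic adhesion genes, 43.3% of 30 immunoglobulin-type adhesion genes, 42.9% of 28 neural bHLH and SOX factors, 41.9% of 31 pluripotency and early embryonic factors and 40% of 20 Eph receptors and ephrins. It was 1.54% of 65 DNA replication genes and 0% of 72 genes of the mitotic spindle and checkpoint. Further shares were 38.1% of 21 cadherins, 34.1% of 41 semaphorins and other guidance genes and 30.2% of 43 matrix proteins. They were 23.1% of 26 HOX genes, 19% of 42 WNT genes, 17.6% of 74 other homeobox genes and 13.6% of 44 interferon-stimulated genes. In small lists they were 43.8% of 16 haematopoietic genes, 42.9% of 7 connexins and pannexins, 37.5% of 8 serpins and 33.3% of 9 TCEAL and BEX genes. Not all surface and signalling lists stood apart, with 12.5% of 16 integrins, 10.9% of 46 members of the TGF-beta, BMP and activin pathway and 4.35% of 23 solute carriers of neurotransmitters and amino acids past the threshold. Among lists of general cell functions, the share was 12.5% of 40 glycolysis and hypoxia genes and 10.5% of 38 cyclins, cyclin-dependent kinases and their inhibitors. These lists were compiled with earlier results of these data known, so their shares are descriptions. The level of a gene moved with these shares: of genes with an average log2 CPM between 1 and 3, 21.5% passed the threshold, and of those between 5 and 7, 2.42% did, and its part in the shares was not tested.

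**Figure D2:**
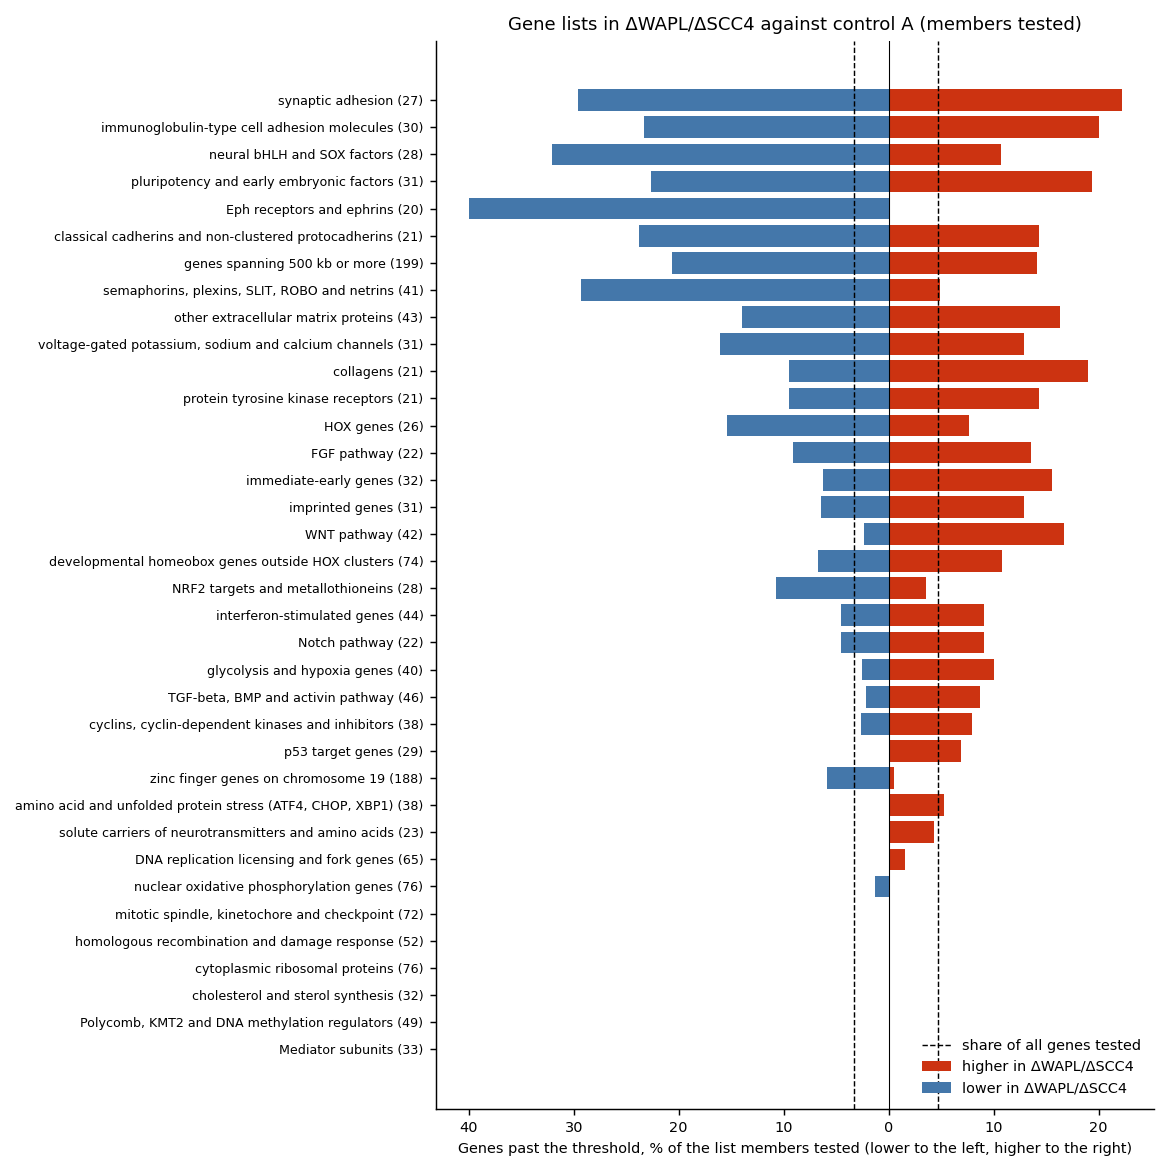
Share of the tested members of each gene list past the threshold in ΔWAPL/ΔSCC4 against control A, in percent, with lower genes drawn to the left and higher genes to the right and the number of tested members in brackets. The dashed lines mark the shares of all tested genes, 3.3% lower and 4.65% higher, and the Eph receptors and ephrins reach 40% on the lower side with none on the higher side.

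Eph receptors and ephrins, which signal between touching cells and steer growing axons, moved in 1 direction among those past the threshold. Of 20 tested members 8 were lower and none was higher, and the median log2 fold change of the list was −0.42 beside 0.0006 for all genes. Besides EPHA3, the receptor EPHA6 fell from 3.00, 2.22 and 2.86 CPM to 0.171, 0.0615 and 0.226 CPM (−4.06 ± 0.36, adjusted p = 3.98e-05 in edgeR's quasi-likelihood test). EPHA7, a further guidance receptor, fell from 9.12, 9.93 and 11.7 CPM to 2.90, 2.27 and 2.32 CPM (−2.04 ± 0.17). The transcript of EFNB1, an ephrin ligand, went from 264, 211 and 203 CPM to 125, 113 and 128 CPM (−0.89 ± 0.14), and the kinase-dead receptor EPHB6 by the same amount. The other 3 lower members, EPHB3, EFNA1 and EFNA5, had log2 fold changes of −0.73, −0.52 and −0.71. None of these 3 was past the threshold without ΔWAPL/ΔSCC4 replicate 1, where the list held 5, and EFNA1 and EFNA5 were not past it without control replicate 2 either, where the list held 6. EFNA1 was past it in only 5 of 13 alternatives and lost its call in 8, with DESeq2, the replicate block, the stricter filter and control B among them, at log2 fold changes of −0.58 to −0.12.

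The secreted and membrane guidance cues named semaphorins, SLITs and netrins with their receptors gave 12 lower and 2 higher genes of 41 tested, with a median log2 fold change of −0.078. SLIT3, a repellent ligand of ROBO receptors, fell from 17.1, 15.8 and 14.8 CPM to 6.03, 5.41 and 6.11 CPM (−1.45 ± 0.14), and ROBO2, one of its receptors, fell from 11.9, 14.5 and 15.6 CPM to 4.50, 6.02 and 5.71 CPM (−1.37 ± 0.16). DRAXIN, a secreted axon repellent, fell by 1.05 and SEMA3C, a class 3 semaphorin, by 2.86 on the log2 scale. These 4 genes passed the threshold in edgeR's quasi-likelihood test under every alternative that gave them a value. The remaining members were closer to the threshold, and the number of the list past it was 7 without control replicate 2, 9 without control replicate 3, 7 without ΔWAPL/ΔSCC4 replicate 1 and 6 without ΔWAPL/ΔSCC4 replicate 3.

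Synaptic adhesion genes changed in both directions, with 6 higher and 8 lower of 27 tested. When only genes with at least 10 counts in every sample were tested, 3 were higher and 4 lower of 19. The list held some of the most extreme values of the comparison, from −7.47 for ADGRL3 to 6.92 for NLGN4X. FLRT2, a membrane ligand of latrophilin 3, fell from 21.1, 34.8 and 44.9 CPM to 2.16, 3.07 and 1.02 CPM (−4.02 ± 0.36, adjusted p = 4.38e-05 in edgeR's quasi-likelihood test), while the teneurin TENM1, which binds latrophilins as well, rose from 0.391, 0.555 and 1.13 CPM to 3.07, 3.20 and 2.32 CPM (2.01 ± 0.32). A further teneurin, TENM2, was lower (−1.39 ± 0.33, adjusted p = 0.0267). The olfactomedin family split in the same way: OLFM3 fell from 8.27, 7.77 and 7.93 CPM to 0.854, 0.369 and 0.396 CPM (−3.86 ± 0.25) while OLFM1 rose. LRRTM3, a postsynaptic organizer, fell from 20.3, 21.8 and 25.7 CPM to 6.49, 6.94 and 6.22 CPM (−1.79 ± 0.14).

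Immunoglobulin-type adhesion molecules, which join cells through extracellular immunoglobulin domains, were also mixed, with 6 higher and 7 lower of 30 tested. SDK1, a sidekick protein of synaptic layers, rose from 1.5, 1.97 and 2.50 CPM to 13, 11.4 and 14.9 CPM (2.71 ± 0.20), and its paralog SDK2 rose by 1.99 ± 0.32. CADM1, a homophilic adhesion molecule, rose from 21.3, 24.2 and 25.6 CPM to 45.1, 45.7 and 40.1 CPM (0.88 ± 0.12). CNTN1, a contactin of axons, fell by 1.10 and IGSF11, a synaptic adhesion protein, by 1.19. The number of this list past the threshold was 8 without control replicate 2 and 6 without ΔWAPL/ΔSCC4 replicate 1, and the 5 genes named here passed it in both cases.

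Among cadherins and non-clustered protocadherins, calcium-dependent adhesion proteins, 3 of 21 were higher and 5 lower. FAT3, a giant cadherin, rose by 2.75 ± 0.29 while PCDH18, a protocadherin, fell from 109, 128 and 140 CPM to 57.8, 61.9 and 48.6 CPM (−1.17 ± 0.14) and DCHS1, a ligand of FAT cadherins, fell by 1.23 ± 0.16. The count of 8 fell to 4 without control replicate 2, 3 without ΔWAPL/ΔSCC4 replicate 1, 5 without replicate 2 and 3 without replicate 3. With at least 10 counts in every sample it was 3 of 18 tested, all lower. Of the clustered protocadherins on chromosome 5, whose promoters carry CTCF sites and give neurons their surface identity, 15 were tested. Past the threshold were 2 higher and 3 lower members, together 33.3% beside 7.95% of all tested genes. PCDHB2 rose from 2.15, 2.22 and 2.15 CPM to 8.42, 8.97 and 8.71 CPM (2.00 ± 0.15, adjusted p = 1.27e-05 in edgeR's quasi-likelihood test) and PCDHB5 from 8.21, 7.71 and 7.03 CPM to 27.5, 22.9 and 24.7 CPM (1.71 ± 0.14). PCDHB14, also of the β cluster, was lower (log2 fold change −1.13). The γ cluster members PCDHGA10 and PCDHGC3 were lower by 1.19 and 0.93, but their annotated genes overlap and share 3′ exons, so the division of reads between them is uncertain.

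Neural bHLH and SOX factors, which set neural and glial lineages, gave 9 lower and 3 higher of 28 tested. The OLIG family, factors of the oligodendrocyte and motor neuron lineage, lay on the lower side. OLIG1 fell from 8.27, 7.21 and 6.44 CPM to 1.31, 0.922 and 1.19 CPM (−2.67 ± 0.20, adjusted p = 1.31e-05 in edgeR's quasi-likelihood test), and OLIG3 went from 110 reads over the controls to 3 reads, a CPM ratio of 39.1 with a 95% counting interval of 13 to 192. SOX6, a SOX factor of neural and cartilage development, fell from 12.6, 16.3 and 20.9 CPM to 8.19, 8.11 and 6.05 CPM (−1.16 ± 0.20), whereas ID1, an inhibitor of bHLH factors and a target of BMP signals, rose from 23.2, 17.9 and 15.2 CPM to 40.6, 34.2 and 42.7 CPM (1.06 ± 0.17). The list held 7 members past the threshold without control replicate 2, and likewise 7 without ΔWAPL/ΔSCC4 replicate 1 or replicate 3.

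Homeobox genes outside the HOX clusters gave 8 higher and 5 lower of 74 tested. Besides ALX4, PAX2, a factor of kidney and midbrain development, rose from 4.30, 3.82 and 2.86 CPM to 14.2, 13.3 and 16.1 CPM (1.99 ± 0.17) and LMX1A, a factor of midbrain dopaminergic neurons, rose by 4.14 ± 0.47 from near 0. NKX2-1, a factor of lung, thyroid and forebrain, fell from 27.2, 23.9 and 24.3 CPM to 7.34, 8.73 and 8.31 CPM (−1.63 ± 0.14), and PAX6, a factor of eye and forebrain, fell by 0.99 ± 0.17. The count of 13 was 8 without control replicate 2, ΔWAPL/ΔSCC4 replicate 1 or ΔWAPL/ΔSCC4 replicate 3. With at least 10 counts in every sample it was 7 of 66 tested. Among the HOX genes, which pattern the body axis, 2 of 26 were higher and 4 lower. HOXD10 and HOXD11 rose by 2.80 and 1.53, and HOXC11 fell by 3.22 ± 0.38 and HOXB4 by 0.65 ± 0.13 on the log2 scale. That count of 6 was 3 without ΔWAPL/ΔSCC4 replicate 1, and 3 of 23 tested with at least 10 counts in every sample. With control B in place of control A, 0 HOX genes were higher and 6 lower.

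Early embryonic factors were divided too, with 6 higher and 7 lower of 31, and 8 past the threshold without ΔWAPL/ΔSCC4 replicate 1. With at least 10 counts in every sample 4 were higher and 4 lower of 27. The division was less even with control B in place of control A, with 2 higher and 8 lower. LIN28A, an RNA-binding protein of stem cells that blocks let-7, fell from 2.47, 2.03 and 1.61 CPM to 0.114, 0.123 and 0.283 CPM (−3.49 ± 0.38). KLF4, a zinc finger factor of pluripotency, fell from 6.06, 6.84 and 6.62 CPM to 2.28, 2.77 and 2.88 CPM (−1.30 ± 0.16). Of 16 tested haematopoietic factors and markers 5 were higher and 2 lower. With at least 10 counts in every sample 3 were higher and 1 lower of 12. FLI1, an ETS factor of blood and endothelium, rose from 0.782, 0.617 and 0.536 CPM to 3.70, 3.38 and 2.77 CPM (2.34 ± 0.24), and RUNX1, a master factor of blood stem cells, rose from 5.41, 6.78 and 7.87 CPM to 12.6, 15 and 11.5 CPM (0.96 ± 0.17). KIT, the stem cell factor receptor, fell from 13.9, 19.2 and 22.3 CPM to 7.85, 9.40 and 6.79 CPM (−1.21 ± 0.19). Several other haematopoietic markers stayed at or near 0 in both genotypes, with no CD45 (PTPRC) or CD34 value above 0.123 CPM and none of SPI1 or MPO above 0. The epithelial markers CDH1 and KRT19, the fibroblast marker COL1A2 and the neuronal marker RBFOX3 were likewise at or below 0.13 CPM in all 6 samples. Other markers of the same kinds were expressed. Average log2 CPM was 4.83 for the epithelial KRT8, 8.71 for the mesenchymal VIM, 4.42 for COL1A1 and 3.40 for the neuronal MAP2. COL1A1 rose by 1.15 on the log2 scale, while the mesenchymal markers VIM (−1.21), THY1 (−1.16) and CDH2 (−0.44) were lower and past the threshold. CDH2 lost its call in 8 alternatives.

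Among signalling pathways, the WNT pathway had 8 members past the threshold of 42 tested, 7 higher and 1 lower, while 20 of the 42 had log2 fold changes below 0 and the list median was 0.026. With control B in place of control A, 8 were higher and 3 lower. FZD10, a WNT receptor, rose from 0.912, 1.23 and 0.715 CPM to 9.50, 8.17 and 10.4 CPM (3.28 ± 0.21, adjusted p = 5.03e-06 in edgeR's quasi-likelihood test). The next 3 members by p-value are known to act against WNT signals. SFRP1, a secreted antagonist, rose from 19, 16.8 and 19.3 CPM to 50, 51.9 and 52.1 CPM (1.48 ± 0.12), RNF43, a ubiquitin ligase that removes WNT receptors, rose by 1.36 ± 0.19 and APCDD1, a membrane inhibitor, by 2.09 ± 0.31. The remaining members past the threshold were the ligands WNT7B (2.12) and WNT9A (0.79) and ROR2 (0.56), all higher, and KREMEN1 (−0.46), the 1 lower gene. The list held 5 members past the threshold without control replicate 2, 4 without ΔWAPL/ΔSCC4 replicate 1 and 5 without ΔWAPL/ΔSCC4 replicate 3. With at least 10 counts in every sample it held 5 of 38 tested, all higher.

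In the TGF-β and BMP pathway 4 of 46 tested genes were higher and 1 lower, and 9 passed the threshold without control replicate 1. Against control B in place of control A, 3 were higher and 3 lower. The ligand BMP7 rose from 15.9, 12.5 and 11.9 CPM to 77.9, 66.6 and 73.5 CPM (2.43 ± 0.15, adjusted p = 4.35e-06 in edgeR's quasi-likelihood test) and the ligand BMP6 from 0.912, 0.740 and 1.25 CPM to 3.47, 4.73 and 3.68 CPM (2.01 ± 0.24). LTBP1, which stores latent TGF-β in the matrix, rose by 1.33 ± 0.17. In the insulin-like growth factor axis, the ligand IGF2, an imprinted gene that overlaps INS-IGF2, rose by 1.83 ± 0.19 while IGFBP5, a binding protein that holds IGFs, fell from 431, 421 and 440 CPM to 35.3, 43.1 and 38.8 CPM (−3.46 ± 0.13, adjusted p = 1.38e-07), the fall of an abundant transcript to a level 11-fold lower. CCND1, the G1 cyclin D1, rose from 4.56, 5.18 and 6.14 CPM to 20, 20.2 and 19.7 CPM (1.91 ± 0.14), and CDKN1A, the kinase inhibitor p21, from 10.9, 7.89 and 8.52 CPM to 20.8, 21 and 19.9 CPM (1.17 ± 0.15). These were 2 of the 3 genes higher among 38 tested cyclins, kinases and inhibitors, of which 1 was lower.

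Intermediate filament genes, which give cells mechanical support, changed in opposite directions. KRT8, a keratin of simple epithelia, rose from 9.64, 7.65 and 7.15 CPM to 51.6, 44.8 and 49.1 CPM (2.57 ± 0.15, adjusted p = 3.31e-06 in edgeR's quasi-likelihood test), whereas VIM, the mesenchymal filament vimentin, fell from 654, 597 and 508 CPM to 249, 237 and 277 CPM (−1.21 ± 0.13, adjusted p = 0.00016). KRT18, the filament partner of KRT8, differed by 0.24 ± 0.16 and did not pass the threshold. INA, a neuronal filament, rose by 0.68 ± 0.11, and MAP2, a microtubule protein of dendrites, fell from 14.3, 17.5 and 23.2 CPM to 2.39, 3.69 and 2.26 CPM (−2.73 ± 0.24). Of the extracellular matrix genes outside the collagens, 7 of 43 were higher and 6 lower. Against control B in place of control A, 5 were higher and 12 lower. LAMA2, a laminin chain of muscle and nerve, fell by 3.01 ± 0.20, THBS2, an antiangiogenic thrombospondin, fell from 45.9, 49.6 and 58.0 CPM to 12.9, 14.9 and 14.9 CPM (−1.85 ± 0.14), and SPARC, a collagen-binding matricellular protein, fell by 1.08 ± 0.14. CCN1, a matricellular protein induced by growth factors, rose from 54.8, 51.4 and 46.2 CPM to 122, 118 and 131 CPM (1.28 ± 0.12).

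Smaller families gave few but large changes. All 3 serpins past the threshold, of 8 tested, were higher, and SERPINF1, the antiangiogenic factor PEDF, rose from 24.5, 24.7 and 21.2 CPM to 111, 97.0 and 115 CPM (2.19 ± 0.13). Of 7 tested connexins and pannexins, which form junction channels, 3 were higher, GJA1 and GJB2 (1.18 ± 0.14) among them. Against control B in place of control A, 2 serpins were higher and 1 lower, and 3 connexins and pannexins were higher and 1 lower. ANXA1, the phospholipid-binding annexin A1, rose from 32.6, 32.4 and 30.6 CPM to 234, 236 and 226 CPM (2.86 ± 0.12, adjusted p = 2.22e-07 in edgeR's quasi-likelihood test), with S100A11, an annexin-binding S100 protein, at 1.36 ± 0.13. The proteasome subunit PSMB8, an interferon-inducible gene, rose from 14.5, 15.3 and 11.6 CPM to 51.9, 45.4 and 49.1 CPM (1.82 ± 0.14). Of 44 interferon-stimulated genes 6 passed the threshold, 4 of them higher. The count was 3 without control replicate 2 or without ΔWAPL/ΔSCC4 replicate 3, and 13, with 10 higher, against control B in place of control A. In the TCEAL and BEX family of small X-linked proteins 3 of 9 tested members were lower and none higher. With at least 10 counts in every sample 1 of 7 tested was lower. TCEAL9 is given above, TCEAL8 went from 82 reads over the controls to 2, a CPM ratio of 43.7 with a 95% counting interval of 11.7 to 367, and TCEAL2 fell by 1.51 ± 0.25. On the X chromosome as a whole 38 of 458 tested genes (8.3%) were lower and 21 (4.59%) higher, together 12.9%. Of all tested genes 3.3% were lower and 4.65% higher, together 7.95%.

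In several housekeeping and chromosome maintenance lists, no gene passed the threshold, in edgeR's quasi-likelihood test or with DESeq2, among 72 genes of the mitotic spindle, 52 of homologous recombination, 49 Polycomb, KMT2 and DNA methylation regulators, 33 Mediator subunits, 32 of sterol synthesis, 15 condensin and SMC5/6 subunits and 76 cytoplasmic ribosomal proteins. Of all tested genes 7.95% passed it, and of those with an average log2 CPM between 5 and 7 only 2.42% did. The part of expression level in these zeros was not tested. At an unadjusted p under 0.05 the counts were 4 mitotic, 1 recombination, 2 Polycomb group, 3 Mediator, 4 sterol, 1 condensin and 22 ribosomal protein genes. Over all tested genes that count was 2222 of 12594. The 1 replication gene of 65 past the threshold, CHTF18, a clamp loader subunit used in sister chromatid cohesion, rose from 21.9, 18.1 and 20.4 CPM to 38.5, 30.4 and 35.2 CPM (0.78 ± 0.14, adjusted p = 0.00536 in edgeR's quasi-likelihood test). The ribosomal protein genes had a median log2 fold change of −0.226, with 72 of 76 below 0, and 12 of them passed the threshold without control replicate 3. Leaving out that replicate also gave 1 Mediator, 1 Polycomb group and 1 condensin list member, and leaving out control replicate 1 gave 2 sterol, 1 mitotic and 1 Polycomb list member. With control B in place of control A, 5 sterol, 2 mitotic, 1 recombination and 1 Polycomb list member passed, all lower.

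The longest genes changed most often. Of 199 tested genes spanning 500 kb or more, 28 were higher and 41 lower, together 34.7%, against 16.2% of 834 genes of 200 to 500 kb and 6.21% of 5326 genes of 10 to 50 kb. Long genes were less expressed than others, with a median log2 CPM of 3.50 beside 5.27 for genes of 10 to 50 kb. Within a class of similar level the share was higher for the long genes in each class, at 31.5% of 54 against 21.5% of all genes between 1 and 3 log2 CPM, and at 36.5% of 74 against 8.46% between 3 and 5. At 7 or above the long genes were 5. The median log2 fold change of the long genes was −0.045. Their number past the threshold ran from 52 to 84 when each library was left out in turn. It was 42 of 170 tested with at least 10 counts in every sample.

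**Figure D3:**
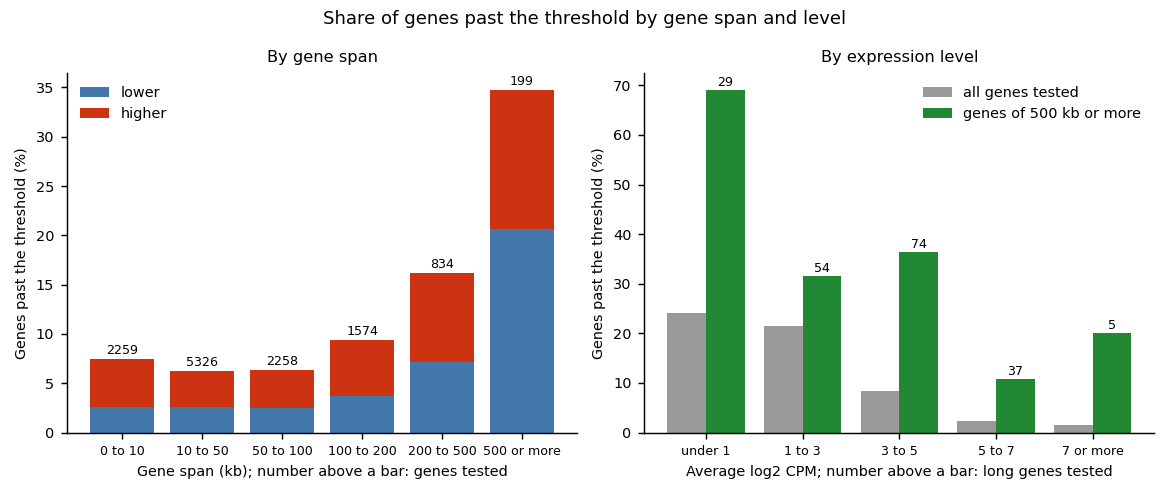
Share of tested genes past the threshold, in percent, by the annotated span of the gene (left, lower genes in blue and higher genes in red) and by average log2 CPM (right, all genes in grey and genes of 500 kb or more in green), with the number of genes above the bars. The share is 34.7% for genes of 500 kb or more and between 6.21% and 9.4% for genes under 200 kb.

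Several of the long genes encode synaptic and developmental proteins. NELL1, a secreted osteogenic glycoprotein (906.1 kb), fell from 39.1, 41.5 and 34.4 CPM to 2.39, 2.34 and 2.66 CPM (−3.96 ± 0.15, adjusted p = 1.65e-07 in edgeR's quasi-likelihood test). SYT1, the calcium sensor of synaptic vesicle fusion (588 kb), fell from 12, 16.9 and 17.6 CPM to 0.797, 0.860 and 0.679 CPM (−4.31 ± 0.22). ATP8A2, a phospholipid flippase of neurons (653.9 kb), fell from 40.6, 50.1 and 62.3 CPM to 7.28, 7.93 and 6.56 CPM (−2.81 ± 0.18). Also lower were ALDH1A2, which makes retinoic acid, by 2.84, FOXP2, a forkhead factor of speech circuits, by 2.32, DLG2, a postsynaptic scaffold, by 2.38, and CDK14, a kinase of WNT receptors, by 2.38. Among those that rose were DLC1, a GTPase-activating protein (521.2 kb), from 2.41, 3.14 and 3.64 CPM to 24.3, 26.1 and 23.4 CPM (3.00 ± 0.16), CADPS2, a protein of dense-core vesicle release (3.25 ± 0.24), and FRMD4A, a polarity scaffold (2.06 ± 0.16). The spread of the directions was wide, from at least 36.2-fold lower for ZNF385D to a log2 fold change of 5.08 for KSR2.

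KRAB-type and other zinc finger genes on chromosome 19, most of which encode repressors of transposons, had 11 lower genes and 1 higher of 188 tested, 6.38% in all beside the 7.95% of all genes, and 19 past the threshold without control replicate 1. ZNF486 went from 95 reads over the controls to 3, a ratio of 33.7 in CPM with a 95% counting interval of 11.2 to 167, and ZNF43 fell by 3.48 ± 0.44. With the 3 control B libraries in place of control A the list had 37 genes past the threshold, all lower. With at least 10 counts in every sample it had 5 of 179 tested, all lower. Zinc finger paralogs are similar in sequence and may share reads.

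At the distal end of that chromosome 4 neighbouring tested genes were lower together, over 214.3 kb from 58452201 to 58666477 of chromosome 19 (GRCh37). They were ZNF256 (−3.34 ± 0.23), ZNF606 (−1.60 ± 0.24), ZSCAN18 (−2.22 ± 0.26) and ZNF329 (−4.31 ± 0.29), zinc finger proteins encoded on the minus strand. ZNF329 was at 7.68, 8.20 and 6.44 CPM in control A and at 0.341, 0.615 and 0.170 CPM in ΔWAPL/ΔSCC4. ZNF256 went from 6.19, 6.47 and 7.03 CPM to 0.398, 0.799 and 0.735 CPM, ZSCAN18 from 3.78, 3.33 and 3.58 CPM to 0.455, 1.04 and 0.792 CPM and ZNF606 from 3.13, 4.01 and 5.36 CPM to 1.54, 1.17 and 1.41 CPM. In all 4 genes the genotypes did not overlap, and the tested genes on either side, ZNF417 and ZNF274, did not pass the threshold.

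The promoters of 3 of these genes are shown because the genes fell together; ZNF606 is named only. The sequences are from RefSeq on GRCh38.p14, minus strand, 250 bases before to 50 after the start, read 5′ to 3′ with each CG dinucleotide in capitals, at chr19:57947657-57947956, chr19:58118355-58118654 and chr19:58150740-58151039 in the order given.
ZNF256: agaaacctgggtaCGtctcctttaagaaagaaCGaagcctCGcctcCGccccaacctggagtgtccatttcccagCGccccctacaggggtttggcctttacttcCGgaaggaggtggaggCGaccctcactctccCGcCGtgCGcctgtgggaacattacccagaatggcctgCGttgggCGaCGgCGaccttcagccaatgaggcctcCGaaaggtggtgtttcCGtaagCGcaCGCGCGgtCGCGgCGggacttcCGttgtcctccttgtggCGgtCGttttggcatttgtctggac
ZSCAN18: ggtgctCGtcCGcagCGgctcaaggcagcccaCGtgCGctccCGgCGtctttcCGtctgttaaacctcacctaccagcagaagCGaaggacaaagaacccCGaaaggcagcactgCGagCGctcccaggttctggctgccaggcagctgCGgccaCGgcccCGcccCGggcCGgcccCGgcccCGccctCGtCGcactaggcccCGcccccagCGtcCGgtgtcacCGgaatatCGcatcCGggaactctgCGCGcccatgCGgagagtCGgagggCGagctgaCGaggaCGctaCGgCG
ZNF329: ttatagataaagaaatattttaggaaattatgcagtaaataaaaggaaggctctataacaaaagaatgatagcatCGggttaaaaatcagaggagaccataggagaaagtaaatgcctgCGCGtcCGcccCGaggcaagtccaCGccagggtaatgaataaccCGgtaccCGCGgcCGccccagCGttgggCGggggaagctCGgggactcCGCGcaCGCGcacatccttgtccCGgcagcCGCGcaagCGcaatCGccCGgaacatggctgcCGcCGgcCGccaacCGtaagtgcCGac
They held 26, 36 and 28 CG dinucleotides, beside a median of 27 over the 10137 tested genes with a promoter of the same length in RefSeq. The letters CCANNAGNNGGC, part of the CTCF motif, were searched on both strands and were in none of the 3 windows and in 2.49% of all 27305 RefSeq promoters.

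Counted over all chromosomes, there were 7 runs of at least 3 neighbouring tested genes past the threshold and with the same sign, 4 higher and 3 lower, and 2 runs when only genes with at least 10 counts in every sample were tested. On chromosome 7, the class 3 semaphorins SEMA3E, SEMA3A and SEMA3D lay next to each other over 1824 kb and were lower by 0.83, 0.75 and 1.08. None of the 3 passed the threshold with control B in place of control A. SEMA3E also missed it without control replicate 2 and without ΔWAPL/ΔSCC4 replicate 1 or 3, and SEMA3A without any single library other than control replicate 1. The highest adjusted p over these alternatives was 0.102, 0.244 and 0.627 for SEMA3E, SEMA3A and SEMA3D in edgeR's quasi-likelihood test. On chromosome 2, DPP4, a cell surface peptidase, IFIH1, a sensor of double-stranded RNA, and GCA, a calcium-binding protein of granulocytes, were higher over 379.4 kb, at 0.74, 1.49 and 1.15. DPP4 had a log2 difference of −0.431 against control B (adjusted p = 0.0503 in edgeR's quasi-likelihood test) and an adjusted p of up to 0.0674 without control replicate 2 or ΔWAPL/ΔSCC4 replicate 1, while IFIH1 and GCA passed the threshold under every alternative that gave them a value. On chromosome 8 the matrix sulfatase SULF1, with 136 reads over the controls and 2 in ΔWAPL/ΔSCC4, lay between PREX2, a Rac exchange factor (−0.95 ± 0.25), and SLCO5A1, a solute carrier (−1.32 ± 0.22). PREX2 had an adjusted p of up to 0.193 without control replicate 2 or 3 or ΔWAPL/ΔSCC4 replicate 1 or 3. On the same chromosome MAL2 lay in a run of 4 higher genes with SAMD12 (2.52 ± 0.26), CCN3 (1.91 ± 0.30) and ENPP2 (0.73 ± 0.15), the last at an adjusted p of 0.0633 without ΔWAPL/ΔSCC4 replicate 3.

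**Figure D4:**
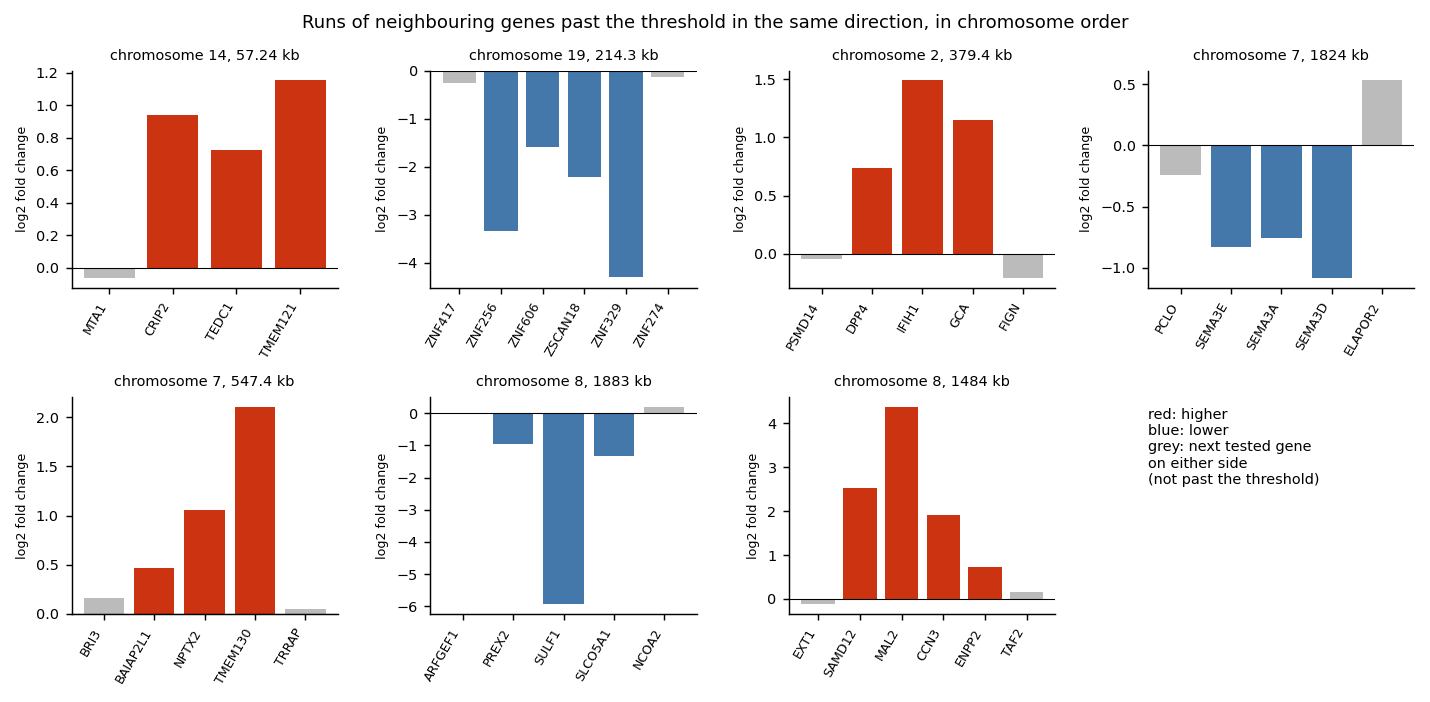
Log2 fold change in ΔWAPL/ΔSCC4 against control A of the genes in the 7 runs of neighbouring genes past the threshold, in chromosome order, with higher genes in red, lower genes in blue and the next tested gene on either side, not past the threshold, in grey. In the chromosome 19 panel the 4 blue bars reach −4.31 between grey neighbours close to 0.

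The values in ΔWAPL 3.3 and ΔSCC4 cells place these changes beside those of each single loss. Those comparisons used the same control A libraries, so they are not independent of the ΔWAPL/ΔSCC4 values and are set side by side only. In ΔWAPL 3.3 against control A 1008 of 12489 tested genes passed the threshold (8.07%), and in ΔSCC4 against control A 1186 of 12503 (9.49%), or 5754 with the replicate number as a block. Direct fits between genotypes, which do not involve the controls, gave 1330 of 12544 genes (10.6%) between ΔWAPL/ΔSCC4 and ΔWAPL 3.3 and 3447 of 12604 (27.3%) between ΔWAPL/ΔSCC4 and ΔSCC4. Those counts were 861 without ΔWAPL 3.3 replicate 2, and 2080 without ΔSCC4 replicate 2 or 2244 without ΔWAPL/ΔSCC4 replicate 1. The count for ΔSCC4 against control A was 2317 without control replicate 1 and 662 without control replicate 2.

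Some genes were far from the controls in all 3 knockouts. NLGN4X had log2 fold changes of 5.46 in ΔWAPL 3.3, 6.38 in ΔSCC4 and 6.92 in ΔWAPL/ΔSCC4, and the direct fits placed ΔWAPL/ΔSCC4 above ΔWAPL 3.3 by 1.44 ± 0.15 and above ΔSCC4 by 0.51 ± 0.17 (adjusted p = 3.79e-06 and 0.0307 in edgeR's quasi-likelihood test). OLFM1 stood at 2.78, 4.42 and 4.0, RELN at −5.75, −5.58 and −5.27, and TCEAL9 at −5.12, −8.30 and −6.83 in the same order. IGFBP5 stood at −3.77, −2.59 and −3.46, with no difference past the threshold between ΔWAPL/ΔSCC4 and ΔWAPL 3.3 (0.29 ± 0.12, adjusted p = 0.173).

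Other genes were higher than in control A in both genotypes lacking SCC4. TMEM132E was higher by 1.21 in ΔWAPL 3.3 but by 4.35 in ΔSCC4 and 4.51 in ΔWAPL/ΔSCC4, which differed from ΔSCC4 by 0.15 ± 0.14 (adjusted p = 0.438) and from ΔWAPL 3.3 by 3.29 ± 0.16 (adjusted p = 1.38e-09 in edgeR's quasi-likelihood test). GJA1 was at 16.5 to 22.3 CPM in ΔWAPL/ΔSCC4 and at 11.6 to 17.4 CPM in ΔSCC4, a difference of 0.41 ± 0.17 (adjusted p = 0.0803), while ΔWAPL 3.3 had 0.665 to 1.10 CPM. ALX4 was lower than the controls in ΔWAPL 3.3 (−3.39 ± 0.27) and higher in ΔSCC4 (2.59 ± 0.18) and in ΔWAPL/ΔSCC4 (3.73 ± 0.18), so that ΔWAPL/ΔSCC4 lay above its parental ΔWAPL 3.3 clone by 7.10 ± 0.19 (adjusted p = 1.58e-12) and above ΔSCC4 by 1.13 ± 0.14 (adjusted p = 9.08e-06).

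A further set stood closer to clone 3.3 than to ΔSCC4. MYOM1 was at 4.46 to 6.18 CPM in ΔWAPL 3.3 and at 1.19 to 1.91 CPM in ΔWAPL/ΔSCC4, a further drop of 1.80 ± 0.22 (adjusted p = 2.43e-05 in edgeR's quasi-likelihood test), while ΔSCC4 had 189 to 199 CPM. GTSF1 and LGALS8 were lower in ΔWAPL 3.3 by 3.00 and 4.15 and had log2 fold changes of 0.43 and 0.39 in ΔSCC4, neither past the threshold. BMP7 and FZD10 were at 67.8 to 75.2 CPM and 9.52 to 10.8 CPM in ΔWAPL 3.3, with differences of 0.05 ± 0.12 and −0.09 ± 0.14 in ΔWAPL/ΔSCC4 against it, and in ΔSCC4 BMP7 was at 0.815 to 1.04 CPM and FZD10 at 0 in all 3 samples. In these 5 genes clone 1.14, the other ΔWAPL clone, gave other values: against control B the log2 fold change was −0.15 for MYOM1, 0.09 for GTSF1, 0.40 for LGALS8 and −4.41 for BMP7, and FZD10 was at 0 in all 3 of its samples.

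Genes also differed between ΔWAPL/ΔSCC4 and both single losses. CROT was at 0.113 to 0.246 CPM in ΔWAPL/ΔSCC4 against 3.89 to 6.53 CPM in ΔWAPL 3.3 and 6.50 to 11.4 CPM in ΔSCC4 (−4.90 ± 0.38 and −5.66 ± 0.37 in the direct fits, adjusted p = 1.59e-07 and 6.45e-09 in edgeR's quasi-likelihood test). EPHA6 was lower than in ΔWAPL 3.3 by 4.78 and than in ΔSCC4 by 4.64, FLRT2 by 3.31 and 3.45, MAP2 by 3.00 and 2.74, and CDK14 by 2.99 and 2.34 on the log2 scale. TFPI2 was at 11.2 to 12.2 CPM in ΔWAPL 3.3 and 8.02 to 9.47 CPM in ΔSCC4, above the controls, and at 0 in ΔWAPL/ΔSCC4. KRT8 was below control A in both single losses (−1.15 ± 0.19 and −1.61 ± 0.25) and above it in ΔWAPL/ΔSCC4 (2.57 ± 0.15), with direct differences of 3.70 ± 0.14 and 4.16 ± 0.20. Since ΔWAPL/ΔSCC4 was a clone of its own, its genotype and its selection cannot be told apart for these genes.

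**Figure D5:**
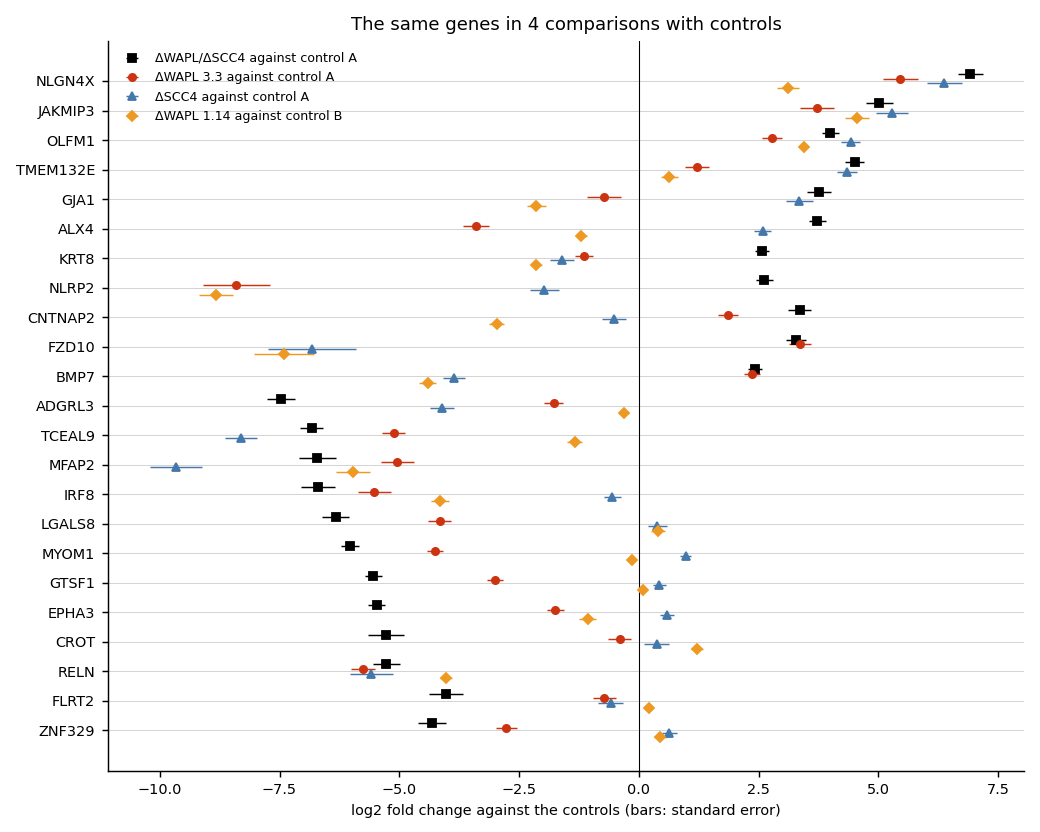
Log2 fold change with its standard error for 23 genes in ΔWAPL/ΔSCC4 (black squares), ΔWAPL 3.3 (red circles) and ΔSCC4 (blue triangles), each against the shared control A, and in ΔWAPL 1.14 against control B (orange diamonds). NLGN4X, JAKMIP3 and OLFM1 lie above 0 and RELN, TCEAL9 and MFAP2 below 0 in all 4, KRT8 is above 0 in ΔWAPL/ΔSCC4 and below 0 in the others, and FZD10 was at 0 CPM in ΔSCC4 and ΔWAPL 1.14, where its fold change depends on the prior count.

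ΔWAPL clone 1.14 against control B shared no library with the ΔWAPL/ΔSCC4 comparison. Of 12442 genes tested in both, 929 passed the threshold in ΔWAPL/ΔSCC4 and 2435 in clone 1.14, and 395 did so in the same direction, which is 42.5% of the former and 16.2% of the latter. Another 161 (17.3% of the ΔWAPL/ΔSCC4 genes) were past the threshold in opposite directions. Of 521 genes higher in ΔWAPL/ΔSCC4 38% were higher in clone 1.14, beside 8.37% of all genes, and of 408 lower genes 48.3% were lower, beside 11.2% of all. Clone 1.14 had 2536 of 12636 genes past the threshold (20.1%), with 1415 to 4820 when each library was left out in turn, namely 1415 without its replicate 1, 1473 without its replicate 3, 1523 without control B replicate 1 and 4820 without control B replicate 3. Among the shared genes were HBB at 3.29 to 4.04 CPM in clone 1.14 and 0 in all control B samples, JAKMIP3 (4.56 ± 0.25), OLFM1 (3.45 ± 0.09), CADPS2 (3.19) and FAT3 (3.69) on the higher side. On the lower side were RELN (−4.02 ± 0.13), IRF8 (−4.15), LRRN3 (−3.59), OLIG1 (−3.60), LIN28A (−6.91) and ALDH1A2 (−2.90). CNTNAP2, GJA1, ALX4, BMP7 and KRT8 were higher in ΔWAPL/ΔSCC4 and lower in clone 1.14.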

How the data were processed

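Polyadenylated RNA was sequenced from HAP1 cells as strand-specific libraries. The authors aligned reads to hg19 with TopHat2 (version 2.0.9 in the submitters' processing notes) and deposited raw read counts per gene from HTSeq; the annotation version is not given in the sources used here, and the notes also name DESeq2 1.10.1. Rows that name no gene were left out, at 20.3% to 22.6% of each library. From the counts, each comparison was fitted on its own 6 libraries with edgeR 4.0.16 in R 4.3.3 (TMM, filterByExpr, quasi-likelihood test, Benjamini-Hochberg, threshold 0.05), and standard errors were taken from the fold change and its F value. Totals were 10007646 to 20711127 counts per library over the series. Genes were placed with a GRCh37 annotation that held 96.6% of the identifiers, and 32 of 2018 listed symbols had no match. Named genes were WAPL, MAU2 and NIPBL, the 15 largest rises and falls with separate groups whose log2 CPM averaged 1 or more, up to 4 members of each list with the lowest p-values, role-defining members and genes of runs; a further set of list members past the threshold was chosen after their values were seen (among them FLRT2, TENM1, SDK2, LRRTM3, EPHB6, PAX6, SOX6, RUNX1, SPARC and the long genes beyond the first 4). The members and lists were chosen with earlier results of these data known. In simulated counts for these 12594 genes the fit found 93% of genes changed 2-fold and 96% of those changed 4-fold, with 3.57% false among the calls. The simulated counts were independent, with a spread set by expression level only and no replicate shift linked to GC content. These rates therefore need not hold for the real libraries. Alternatives were DESeq2 1.42.0, other size factors, other filters, a fit over all set A samples, the replicate number as a block, control B, and leaving out each library. Deviations from group means correlated between same-numbered samples at 0.318, 0.240 and −0.638 for ΔWAPL/ΔSCC4 and control A. For ΔSCC4 and control A the values were 0.775, 0.170 and 0.703. Samples with different numbers also reached 0.722, for ΔWAPL/ΔSCC4 replicate 2 and control A replicate 3. These correlations therefore do not show that the numbers mark pairs.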

Additional observations from a re-analysis of the deposited data

How the results depend on the processing

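The number of genes past the threshold in ΔWAPL/ΔSCC4 against control A was 1001. It was 1120 with one fit over all set A samples, 1377 with control B in place of control A, 1007 with DESeq2, 1004 with DESeq2 size factors, 672 with at least 10 counts in every sample and 1143 with no filter, and it ran from 586 to 1552 when each library was left out in turn. With the replicate block it was 944. In ΔSCC4 against control A the count was 5754 with the replicate block, 1841 with one fit over all samples of the set and 662 to 2317 with a library left out. Whether the replicate numbers mark pairs is not known, so the count of 5754 rests on an assumption. The other leave-one-out ranges were 1415 to 4820 for clone 1.14, 861 to 1805 for ΔWAPL/ΔSCC4 against ΔWAPL 3.3 and 2080 to 5020 against ΔSCC4. The 7 runs of neighbouring genes became 2 with at least 10 counts in every sample. Against control B, 710 of 989 genes with a value (71.8%) passed in the same direction and 1 in the opposite, and 3 named genes past the threshold changed sign, IRS1 (−0.070), COL12A1 (−0.156) and DPP4 (−0.431). The cause was not tested. Over 228 named genes and 2899 alternative values, 2711 kept their side of the threshold and, where past it, their direction, 185 kept the direction but were no longer past it and 3 of genes past it changed sign. Genes not past it could lie on both sides of 0, such as SMC1A (−0.30 to 0.12) and SMC3 (−0.15 to 0.31). Low counts limit the falls to near 0, for which bounds or counting intervals are given.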
